A study of Mus musculus with 2 samples.

Results

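Long intergenic non-coding RNA (lincRNA) genes make transcripts with no annotated protein product from the DNA between or beside protein-coding genes. The genes described here were the lincRNA genes with a measurable level in the newborn mouse cortex, apart from a small set of very well known ones. A gene was a member when every annotated transcript of it was classed as lincRNA and its level was 2 TPM or more (transcripts per 1e6 transcripts, a level corrected for transcript length and library size) in both libraries. Malat1, Neat1, Miat, Pantr1, Sox2ot, Rmst, Meg3, Rian, Mirg, Peg13, H19, Gm26917, Gm42418, Rmrp and the Snhg genes were left out by name. Of 5844 lincRNA genes among 55450 annotated genes, 199 reached 2 TPM in both libraries, 14 of these were left out by name, and 185 were members, which is 3.17% of the lincRNA genes. The members were selected on the TPM values themselves, so that their levels are a description and that these genes were expressed is no finding.

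Total RNA came from the left cerebral cortex of male B6CASTF1/J mice, F1 hybrids of a B6 and a CAST parent, at an age of 4 days. There were 2 libraries, replicate 1 and replicate 2, from separate tissue samples that the labels number as biological replicates, and both belonged to a single untreated group. Both carry 1 donor entry, and whether it names a mouse or a stock of mice is not stated. With 1 library on each side p-values set a difference against counting error only. Each library was made from 300 ng of ribosome-reduced RNA with ERCC spike-in RNAs. No other group was sampled, so every difference below is between these 2 libraries and not between conditions.

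Some lincRNAs act as RNA, for instance by binding proteins or microRNAs. Others matter mainly because a microRNA or small nucleolar RNA is cut out of their transcript, or because their transcription starts at a promoter shared with a coding gene. In the brain the class is known for microRNA host genes of neural progenitors and neurons, for a dendritic RNA made by RNA polymerase III, and for transcripts that bind or remove the microRNA miR-7.

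Depth was 26897687 expected counts for replicate 1 and 29511737 for replicate 2. Together the members took 0.387% and 0.382% of the counts on annotated genes, 103693 and 112316 counts. Markers of excitatory neurons, 8 genes with Slc17a7 and Neurod6 among them, summed to 770.2 TPM in replicate 1 and 675.8 TPM in replicate 2, and no marker found of the 13 lists was at 0 in both libraries. Some lists of other cells and regions differed between the libraries. The 9 interneuron markers summed to 367.8 and 472.5 TPM and the 6 striatal markers to 73.1 and 123.7 TPM. The 6 astrocyte markers summed to 648.9 and 706.4 TPM and the 5 markers of the meninges to 561.3 and 521.3 TPM. Red blood cell markers summed to 214.8 and 455.8 TPM, olfactory bulb markers to 12.2 and 43.5 TPM, and choroid plexus markers to 2.57 and 35.1 TPM. The part of these differences in the members' differences between libraries was not tested. In tissue, fewer cells of a type and less RNA per cell cannot be told apart.

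MicroRNA sequences inside members are shown first, because the members with the highest levels included the host genes of miR-9, a microRNA of neural progenitors and young neurons. Sequences are from RefSeq on GRCm38.p6, 5′ to 3′. The 3 miR-9 genes, Mir9-1, Mir9-2 and Mir9-3, lie in the spans of 3 different members, Gm3764, C130071C03Rik and Mir9-3hg, on the same strand. Their hairpins differ in the flanks and the loop but hold the same mature arms, printed in capitals.
Mir9-1 (chr3:88215598-88215686, plus strand): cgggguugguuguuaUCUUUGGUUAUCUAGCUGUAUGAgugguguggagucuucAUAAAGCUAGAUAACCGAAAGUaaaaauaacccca
Mir9-2 (chr13:83738814-83738885, plus strand): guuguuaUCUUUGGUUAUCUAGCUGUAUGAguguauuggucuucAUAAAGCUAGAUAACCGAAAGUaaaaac
Mir9-3 (chr7:79505264-79505353, plus strand): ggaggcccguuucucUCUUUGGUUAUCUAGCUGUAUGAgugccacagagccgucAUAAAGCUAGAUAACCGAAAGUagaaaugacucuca
In the mature forms the capitals mark the seed, bases 2 to 8, with which a microRNA recognises its targets.
mmu-miR-9-5p: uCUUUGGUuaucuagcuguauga
mmu-miR-9-3p: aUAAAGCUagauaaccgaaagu
A member at a far lower level, 6720427I07Rik, spans 3 let-7 genes, whose products are known for keeping differentiated cells from growth programmes. Their 5p arms share 1 seed.
mmu-let-7a-5p: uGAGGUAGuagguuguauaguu
mmu-let-7d-5p: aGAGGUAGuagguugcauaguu
mmu-let-7f-5p: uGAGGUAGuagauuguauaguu

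A further microRNA, miR-7, is known to be bound by RNAs from the loci of 2 of the 4 highest members. The first is 1700020I14Rik, which RefSeq names Oip5os1 and which is known as Cyrano, an RNA that leads to the decay of miR-7. The second is C230004F18Rik, which RefSeq names Cdr1os and which runs over the Cdr1 gene on the opposite strand, in the region that gives a well known circular RNA with many miR-7 sites. In the annotated transcripts of the members the letters GTCTTCC, the complement of the miR-7 seed, were searched on the transcript's strand. In the best-paired site found in the main transcript of each gene, capitals mark target bases that pair with miR-7 and lower case those that do not.
mmu-miR-7a-5p (seed in capitals): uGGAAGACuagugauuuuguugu
1700020I14Rik, bases 2935 to 2958 of its main transcript: ACAACAAAATCACcaatGTCTTCC
C230004F18Rik, bases 667 to 682 of its main transcript: AAAATCcaAGTCTTCC
The site in 1700020I14Rik pairs with 20 of the 23 bases of miR-7, and its transcript of 8300 bases holds 2 seed matches. The site in C230004F18Rik pairs with 14 bases. That transcript, of 3354 bases, holds 123 seed matches, 36.7 per kb, against 0.103 per kb in the transcripts of the other members and 0.124 per kb in the transcripts of all lincRNA genes. A match is a description of letters and not evidence of binding. Seed matches were found in 14% of the 500 member transcripts, in 42 of the 185 genes, and in 10.6% of all 8501 lincRNA transcripts.

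Levels of the members spread from 2 TPM to 275 TPM, with few genes at the top. The median was 5.22 TPM in replicate 1 and 5.12 TPM in replicate 2. For comparison, the 12112 protein-coding genes at 2 TPM or more in both libraries had medians of 20.2 and 19.4 TPM. By mean level, 90 members lay between 2 and 5 TPM, 45 between 5 and 10, 41 between 10 and 50, 4 between 50 and 100, and 5 above that. The 10 highest members held 46.7% of the members' summed TPM in replicate 1 and 49.3% in replicate 2. Counting depth was modest for most, with a median of 123 counts in replicate 1 and 135 in replicate 2, and 42 members had under 50 counts in a library. The ranking was alike in both libraries, with Pearson's r = 0.976 for log2 TPM and Spearman's rho = 0.939 across the 185 members, which are genes and not independent replicates, and which the threshold had already limited at the low end.

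**Figure D1:**
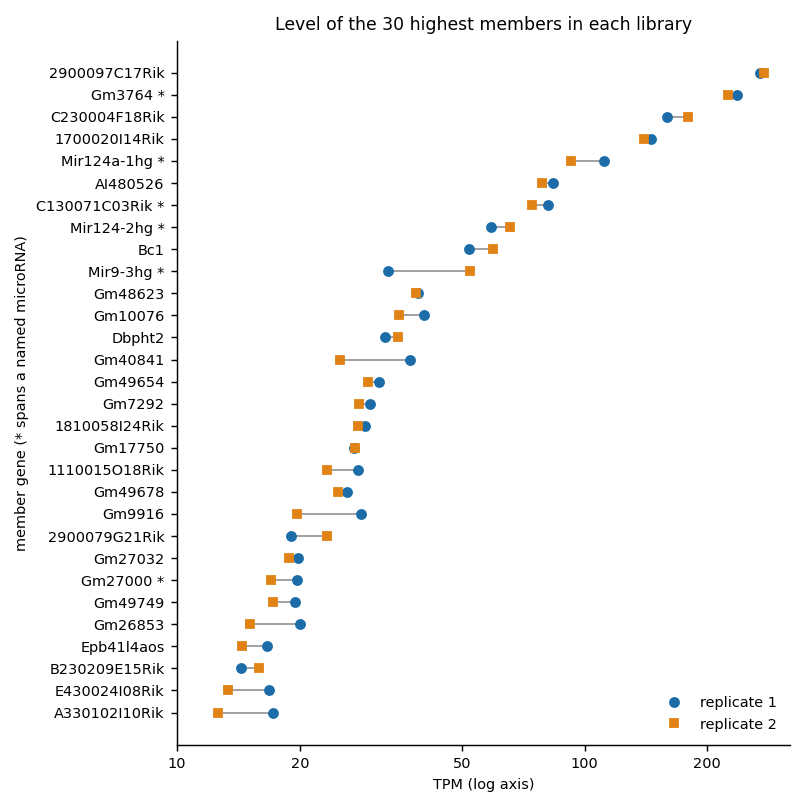
Level of the 30 highest members, 1 row per gene, as TPM on a log axis, with a circle for replicate 1 and a square for replicate 2. The order runs from 2900097C17Rik at 269 and 275 TPM downwards, most pairs of points lie close together, and Mir9-3hg and Gm40841 show the widest gaps among the 15 highest.

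The highest member was 2900097C17Rik, which RefSeq names Norad, an abundant cytoplasmic RNA known for binding Pumilio proteins. It had 269 TPM in replicate 1 and 275 TPM in replicate 2, from 22092 and 25434 counts, and ranked 300 among all 55450 genes. It alone held 21.3% and 22.6% of the members' counts. It lies at chr2:156388065-156392979 on the minus strand (mm10) as a single exon, apart from any coding gene. Of its 31-base words, the stretches of 31 bases in its transcripts, 44.7% also occur in another gene, mainly in Gm7292 on chromosome 6, itself a member at 29.7 and 27.9 TPM. The expected counts of 2900097C17Rik were not whole numbers, as values are when reads are divided between genes.

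The miR-7 genes of the preceding sequences ranked 3 and 4 among the members. C230004F18Rik (Cdr1os) had 159.6 TPM in replicate 1 and 179.6 TPM in replicate 2. Of its 11 annotated transcripts, the one with 123 seed matches held 85.2% and 84.1% of the gene's level. These values are of annotated linear transcripts, and reads from a circular form were not separated here. 1700020I14Rik (Cyrano) had 145 and 140.3 TPM, and its long transcript, which holds the site shown above, took 84.6% and 85.2% of that. Both miR-7 genes thus carried most of their level on the transcript with the sites.

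Bc1 makes a short RNA transcribed by RNA polymerase III that is carried into dendrites and holds back translation. It was listed at 51.9 TPM in replicate 1 and 59.4 TPM in replicate 2. These levels rested on 61 and 79 counts, since its model is only 168 bases long, and the authors' TPM interval in replicate 1 ran from 38.6 to 63.8. The other quantification listed Bc1 at 0 in both libraries, so the 2 quantifications disagree on this gene.

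Host genes of microRNAs stood out by number among the highest members, with 5 of the 10 highest spanning miR-9 or miR-124 genes. In all, 18 members span an annotated microRNA on their strand, 16 of them a named one, and 6 members span a small nucleolar or Cajal body RNA. The 16 named hosts held 22.9% of the members' summed TPM in replicate 1 and 23.1% in replicate 2. Of 42 small RNA entries inside members, 40 had 0 counts in both libraries, where a count of 0 allows up to 3 counts, so the values here are of the long host transcripts and say nothing of the mature microRNAs.

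Among the 3 miR-9 hosts, Gm3764 was highest at 236 TPM in replicate 1 and 225 TPM in replicate 2. C130071C03Rik followed with 81.3 and 74.5 TPM. Mir9-3hg was lowest, at 33.0 TPM in replicate 1 and 52.3 TPM in replicate 2. The order was the same in both libraries, and the levels of the 3 genes did not overlap. Their sum was nearly equal in both libraries, 350.5 and 351.3 TPM, although Mir9-3hg alone was higher in replicate 2.

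The hosts of miR-124, a microRNA abundant in neurons, were lower than Gm3764 but not lower than every miR-9 host. In both libraries Mir124a-1hg was above C130071C03Rik and Mir9-3hg, and Mir124-2hg lay between C130071C03Rik and Mir9-3hg. Mir124a-1hg had 111 TPM in replicate 1 and 92.4 TPM in replicate 2. Mir124-2hg had 58.8 and 65.7 TPM. Neither pair of values overlapped the other, and they moved in opposite directions between the libraries.

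Some annotated transcripts of a host do not run over the whole of its microRNA hairpin, and a few of these begin or end inside it. These genes differed in how much of their level lay on transcripts that run over the whole hairpin, which alone are counted here. In C130071C03Rik, transcripts over Mir9-2 held 75.9% of the gene's level in replicate 1 and 75.3% in replicate 2, and Mir9-2 lies in an exon of the main one. In Mir9-3hg, 4 of 7 transcripts run over Mir9-3, in their introns, and held 50.3% and 48.3%. In Gm3764 only 5 of 11 transcripts run over Mir9-1, and they held 28.2% and 29.6%. On those transcripts alone Gm3764 had 66.7 and 66.5 TPM, close to the 61.7 and 56.1 TPM of C130071C03Rik, so that much of the gap between these 2 genes lay on transcripts that do not run over miR-9. For miR-124 the shares were 41% and 42% in Mir124a-1hg, where Mir124a-1 is exonic, and 19.7% and 26.7% in Mir124-2hg. The highest transcript of Mir124-2hg, with 41.7% and 39.1% of its level, begins inside the Mir124a-2 hairpin and is not in these shares. Also left out are a transcript of Mir124a-1hg that ends inside Mir124a-1 (8.24% and 6.97%) and a transcript of C130071C03Rik that begins inside Mir9-2 (4.4% and 5.95%). Shares between transcripts are estimates of the authors' quantification over annotated models. Which RNAs the microRNAs are cut from was not tested.

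**Figure D2:**
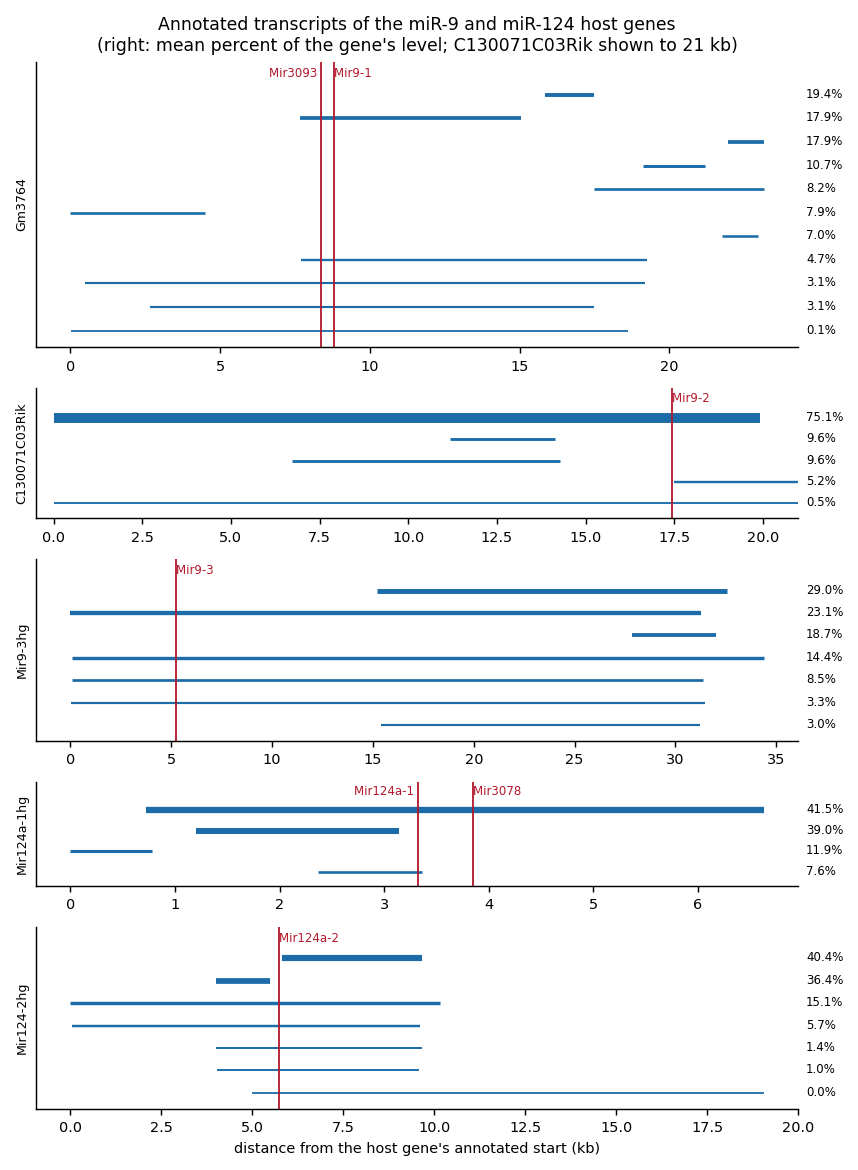
Annotated transcripts of the 5 miR-9 and miR-124 host genes, drawn by distance in kb from the gene's annotated start, introns included, with line width and the number at the right giving the mean percent of the gene's level over both libraries. Red lines mark the microRNAs: in C130071C03Rik the transcript at 75.1% crosses Mir9-2, whereas in Gm3764 the highest transcript, at 19.4%, lies downstream of Mir9-1.

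The other named hosts were at lower levels, given here for the whole gene. The named miR-344 genes, Mir1839 and Mir129-2 do not lie wholly inside the main transcript of their hosts. A230057D06Rik, whose nearest coding gene is the imprinted Ndn, 417879 bases away on chromosome 7, spans 7 named miR-344 genes and had 13.0 TPM in replicate 1 and 10.7 TPM in replicate 2. 2900076A07Rik, which spans Mir1839, had 11.6 and 12.9 TPM. Mir670hg (Mir129-2 and Mir670) had 5.73 and 5.97 TPM. Several were under 5 TPM. C78859 (Mir138-2, a microRNA known from dendritic spines) had 4.64 and 3.93 TPM. The let-7 host 6720427I07Rik had 3.76 and 3.77 TPM. E130102H24Rik (Mir101a) had 3.29 and 3.14 TPM. A430106G13Rik (Mir181b-1) and 4833445I07Rik (Mir191 and Mir425) were lower still, with 3.16 and 2.67 TPM for the first and 2.35 and 2.38 TPM for the second. Among the small nucleolar RNA hosts were Epb41l4aos at 16.6 and 14.4 TPM and 2700038G22Rik, the host of Snord93, at 4.68 and 3.70 TPM.

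A list of 38 well known long non-coding RNAs, chosen with earlier results of these data known, placed 8 among the members, 7 among lincRNA genes under the threshold and 21 in another annotation class, and 2 symbols were not in the tables. One of these 2, Oip5os1, is the RefSeq name of the member 1700020I14Rik. Of the 8 members found by symbol, 3 differed between the libraries, 2900097C17Rik, Mir124a-1hg and Mir9-3hg, beside 26.7% of all genes tested. Jpx and Ftx are neighbours of Xist on the X chromosome and are known as its regulators in females. Here, in males, Jpx had 8.73 TPM in replicate 1 and 7.96 TPM in replicate 2. Ftx had 6.98 and 5.83 TPM. Xist itself, no member, was at 0.09 and 0.02 TPM. Pvt1, the neighbour of Myc, had 11.5 and 13.1 TPM, and Lncpint, a target of p53, had 5.70 and 4.45 TPM.

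Some members had an imprinted gene or a developmental transcription factor as their nearest coding gene. Gm26945, 40011 bases from the imprinted Rtl1 on chromosome 12, had 9.65 TPM in replicate 1 and 7.60 TPM in replicate 2. B830012L14Rik, 95256 bases from Rtl1, had 5.24 and 3.53 TPM. B230209E15Rik, far from coding genes with Ndn the nearest at 731242 bases, had 14.3 and 15.9 TPM. The files do not tell the parental alleles apart. A330102I10Rik, whose nearest coding gene is Sox4, had 17.2 and 12.6 TPM. The miR-9 host C130071C03Rik lies 54301 bases from Mef2c and shares its stretch of chromosome 13 with the members Gm17750, at 27.2 and 27.3 TPM, and 2810049E08Rik, at 2.40 and 3.00 TPM. In all, 11 stretches with members at most 200 kb apart held 27 members.

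Many members began close to a coding gene. In 44 of 185 members (23.8%) the start site lay within 2 kb of the start of a protein-coding gene on the other strand, an arrangement called head to head, against 6.74% of all lincRNA genes and 6.15% of those under the threshold. Only the starts were compared, so some of these members also overlap a coding gene, as given further on. The median gap to the nearest coding gene was 3972 bases for members and 43956 bases for all lincRNA genes. In 102 members (55.1%) none of the close arrangements held, against 84% of all lincRNA genes. Position comes from the annotation and was not used to choose members, and these shares are given without a test.

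Head-to-head members were mostly the weaker partner. Their partners had a median of 34 TPM, the median distance between the starts was 374 bases, and 39 of 44 members were below their partner. AI480526 was an exception, with 83.7 TPM in replicate 1 and 78.8 TPM in replicate 2. Its partner Setd1b, a histone methyltransferase gene that starts 527 bases away, had a mean of 19.5 TPM. Of the words in the transcripts of AI480526, as defined above, 61.3% also occur in other genes, mainly in 4932422M17Rik. Its expected counts were whole numbers, and the part of the shared sequence in its level was not tested. The next highest head-to-head member, 2900079G21Rik, had 19.02 and 23.3 TPM beside 249 TPM for Arpp21. 5031425E22Rik, which starts 172 bases from the histone methyltransferase gene Kmt2e, had 16.04 and 12.8 TPM. 5033430I15Rik, beside the ataxin gene Atxn1, had 12.8 and 14.6 TPM. Others began next to genes of neuronal proteins, such as 4930570G19Rik, 48 bases from Negr1, with 8.64 and 9.14 TPM against 117.5 TPM for Negr1. The widest gap was at Gm5468, with 8.56 and 7.12 TPM against 703 TPM for Basp1, a protein of growth cones. Across all 185 members the level of the nearest coding gene had a Spearman's rho of -0.0051 with the member's level, a description across genes.

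**Figure D3:**
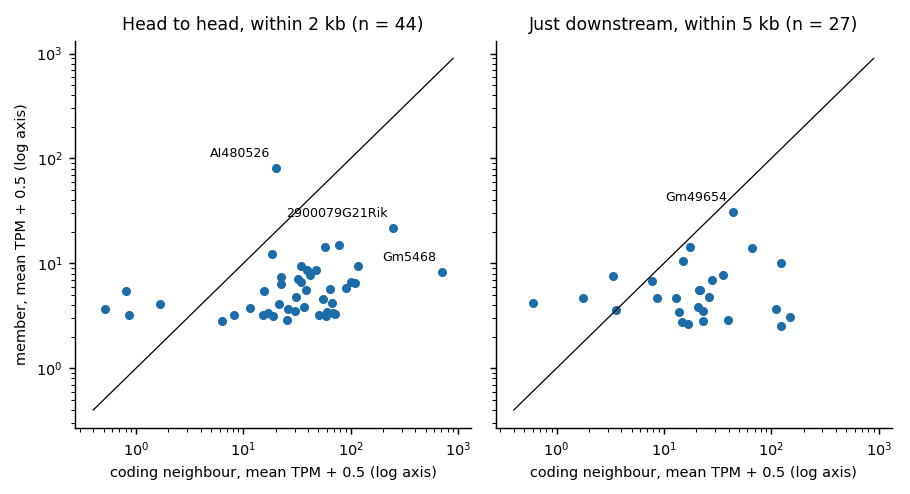
Mean TPM + 0.5 of a member (vertical) against that of its coding neighbour (horizontal), both on log axes, with 1 point per member and the line of equal level. At the left, 39 of 44 head-to-head members were below their partner and AI480526 is the highest point above the line, and at the right, 23 of 27 members just downstream of a gene were below that gene.

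Promoter sequences were at hand in RefSeq for 92 members, as windows from 250 bases before to 50 bases after the RefSeq start, of which 52 had that start within 50 bases of the start of the member's main transcript. A CpG-rich window, with GC over 50% and a CpG ratio (observed over expected) of 0.6 or more, was seen in 44.6% of the member windows, in 45.5% of those of protein-coding genes and in 12.7% of those of all lncRNA genes. By position, 19 of 25 head-to-head members had one (76%), with a median of 30 CpG, against 19 of 55 members apart from coding genes (34.5%), with a median of 9. Of these windows, 17 of the 25 touch a coding exon and 1 of the 55 does. Among windows that touch none, 4 of 8 head-to-head members and 18 of 54 members apart had a CpG-rich one. The windows below, from GRCm38.p6, show both kinds, with every CG in capitals. 5031425E22Rik, head to head with Kmt2e, has a window of 60.3% GC with 24 CG, set at a RefSeq start that lies 583 bases from the start of its main transcript. B230209E15Rik lies far from any coding gene and its window holds no CG at 34% GC, at a level of 14.3 and 15.9 TPM against 16.04 and 12.8 TPM for 5031425E22Rik. Those of Cyrano and of the miR-9 host C130071C03Rik hold 15 and 12 CG.
5031425E22Rik (chr5:23433287-23433586, minus strand): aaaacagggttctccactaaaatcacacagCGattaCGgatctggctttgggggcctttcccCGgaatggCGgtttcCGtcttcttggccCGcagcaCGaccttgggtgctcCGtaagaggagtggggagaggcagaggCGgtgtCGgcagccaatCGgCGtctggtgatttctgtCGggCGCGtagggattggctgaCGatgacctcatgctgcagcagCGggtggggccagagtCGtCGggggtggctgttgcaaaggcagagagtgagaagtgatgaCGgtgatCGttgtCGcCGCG
B230209E15Rik (chr7:61615278-61615577, minus strand): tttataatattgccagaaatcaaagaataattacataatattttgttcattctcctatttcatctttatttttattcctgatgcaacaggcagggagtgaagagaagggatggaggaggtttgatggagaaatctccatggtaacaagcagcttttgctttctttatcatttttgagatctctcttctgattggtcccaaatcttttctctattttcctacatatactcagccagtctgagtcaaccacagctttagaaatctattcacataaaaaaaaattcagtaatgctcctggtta
1700020I14Rik (chr2:119594046-119594345, plus strand): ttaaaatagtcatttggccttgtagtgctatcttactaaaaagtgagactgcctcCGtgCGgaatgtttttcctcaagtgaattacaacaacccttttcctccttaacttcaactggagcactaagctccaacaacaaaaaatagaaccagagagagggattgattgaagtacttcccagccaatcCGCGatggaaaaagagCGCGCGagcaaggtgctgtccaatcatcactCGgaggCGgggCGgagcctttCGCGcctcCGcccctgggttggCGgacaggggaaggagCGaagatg
C130071C03Rik (chr13:83721131-83721430, plus strand): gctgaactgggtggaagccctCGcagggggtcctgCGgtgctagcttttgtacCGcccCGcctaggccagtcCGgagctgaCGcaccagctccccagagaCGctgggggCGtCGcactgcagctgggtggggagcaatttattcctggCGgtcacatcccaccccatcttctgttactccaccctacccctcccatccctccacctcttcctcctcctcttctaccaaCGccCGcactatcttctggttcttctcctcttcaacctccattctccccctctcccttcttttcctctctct
On either strand, the TATA motif TATAAA was in 15.2% of the 92 member windows and in 14.2% of the windows of all 27025 genes. The CCAAT letters were in 45.7% and 37.9%, and the GC box GGGCGG in 40.2% and 35.9%. By class, GGGCGG was in 46.3% of the protein-coding windows and 16.8% of the lncRNA windows. For CCAAT these shares were 39% and 35.9%, and for TATAAA 13.3% and 15.7%. A match says only that the letters are in the window.

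Members just downstream of a coding gene on its strand formed a further group, 27 of 185 (14.6%, against 3.22% of all lincRNA genes, with a gap of at most 5 kb). Whether reads there came from a separate transcript or from a coding transcript that runs past its annotated end was not tested. Of these 27, 10 were single-exon genes, and 23 were below the gene upstream. Gm49654 had 31.2 TPM in replicate 1 and 29.4 TPM in replicate 2, 958 bases after the end of Map3k9, which had 43.2 TPM. AI504432, after the potassium channel gene Kcna3, had 13.7 and 13.9 TPM against 17.1 TPM. Single-exon models made up 22.2% of members and 5.42% of all lincRNA genes.

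A span that overlaps a protein-coding gene was seen in 33 members, on the same strand in 10 and on the other strand in 24. Of the 33, 8 with an overlap on the same strand and 11 with one on the other strand only were not head to head. The rest of the 33 were also counted as head to head. Gm49749, with 19.5 TPM in replicate 1 and 17.1 TPM in replicate 2, lies inside Pcnx on its strand, and all of its 31-base words also occur in Pcnx. C230057M02Rik, opposite Gm20388, had 16.7 and 12.8 TPM. The labels name a spike-in profile for stranded libraries, but whether counting used strand is not given in the sources used here, so reads of these 24 members and of the genes opposite them may not have been told apart.

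Of 185 members, 33 (17.8%) passed a two-sided exact binomial test of their counts with an adjusted p under 0.05, while 26.7% of all 20371 genes tested did. Of these members 8 were higher in replicate 2, against 13.9% of all genes, and 25 were lower, against 12.8%. These shares describe 2 libraries and depend on depth: 7 of 13 members with 1000 or more counts in both libraries passed, and 3 of 81 with under 100 in a library. When spike-in rows set the scale, the median log2 ratio of all genes tested moved from -0.00291 to -0.149, and 1 member was higher and 49 were lower in replicate 2. The median log2 ratio of the members, replicate 2 over replicate 1, was -0.03 with TMM scaling, and all 185 members were within 2-fold. Members had to reach 2 TPM in both libraries, so the rule itself kept out low genes far apart between them. All genes tested needed only 10 counts in total, so their shares and those of the members are not on an equal footing. Past 1.5-fold lay 10 members, of which 5 passed the test: 2 of these were higher, against 1.75% of all genes, and 3 were lower, against 3.82%. The other 5 did not pass and had at most 130 counts in both libraries together.

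Mir9-3hg was the deepest of the 5 that passed. It had 745 counts in replicate 1 and 1274 in replicate 2, so the log2 ratio was 0.67 (SE 0.067 from counting, adjusted p = 2.05e-22, exact binomial test with Benjamini-Hochberg adjustment). The second higher member, M5C1000I18Rik, beside C2cd4b, had 50 and 86 counts. This one lost its call when spike-in rows set the scale (adjusted p = 0.0979, exact binomial test). Summed markers of interneurons, astrocytes, striatum, olfactory bulb, choroid plexus and red blood cells were also higher in replicate 2, as given above. Sums for microglia (34.5 and 37.5 TPM) and for radial glia and dividing cells (124.8 and 128.5 TPM) were slightly higher. Those of excitatory neurons and the meninges were lower, although single markers in both lists went both ways. Sums for the oligodendrocyte lineage, endothelial and mural cells and the thalamus were also lower, but the median log2 ratios of these lists were 0.038, 0.00243 and 0.102. The part of these differences in that of Mir9-3hg was not tested.

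The members that passed the test and were lower in replicate 2 by 1.5-fold or more were Gm30382, Gm43597 and Gm32856. Gm30382, whose nearest coding gene is Adgrl2, had 344 counts in replicate 1 and 214 in replicate 2, and its log2 ratio was -0.79 (SE 0.13, adjusted p = 5.22e-09, exact binomial test). Gm43597, downstream of N4bp2l2, had 326 and 220 counts, a log2 ratio of -0.67 (SE 0.13, adjusted p = 1.23e-06, exact binomial test). Gm32856 had 122 and 86 counts, and its call was lost in the other quantification (adjusted p = 0.173, exact binomial test). Among members that passed, the next largest falls were in Dubr, at 460 and 332 counts, and in Gm44644, far from coding genes with the imprinted Snrpn the nearest, at 119 and 86 counts.

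Of the 13 deepest members 7 passed, with small differences, while 1700020I14Rik (Cyrano) and Gm3764 did not (adjusted p = 0.130 and 0.606, exact binomial test). 2900097C17Rik (Norad) was higher in replicate 2 by 0.10 on the log2 scale (SE 0.013, adjusted p = 4.4e-12, exact binomial test) and C230004F18Rik (Cdr1os) by 0.14 (SE 0.020, adjusted p = 3.08e-10, exact binomial test). Both turned with spike-in scaling, to -0.0488 and -0.0101. The largest difference among the deepest members was in Gm26853, with a log2 ratio of -0.33, or -0.478 with spike-in scaling, and it kept its direction under every alternative run. The 2 hosts of miR-124 differed in opposite directions: Mir124a-1hg had a log2 ratio of -0.17 (SE 0.034, adjusted p = 1.18e-05, exact binomial test) and Mir124-2hg one of 0.16 (SE 0.041, adjusted p = 8.75e-04, exact binomial test). The call of Mir124-2hg was lost with spike-in scaling (adjusted p = 0.887, exact binomial test). Dbpht2, a member that RefSeq classes as protein-coding, had a log2 ratio of 0.17 and also lost its call with spike-in scaling (adjusted p = 0.627, exact binomial test). Of the 16 named microRNA hosts 6 passed, 4 of them lower and 2 higher in replicate 2, beside 26.7% of all genes tested, 12.8% lower and 13.9% higher. One of the 6, C130071C03Rik, had a log2 ratio of -0.08 and lost its call with DESeq2 size factors, with no filter on counts and in the other quantification (adjusted p = 0.138, 0.060 and 0.213, exact binomial test).

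**Figure D4:**
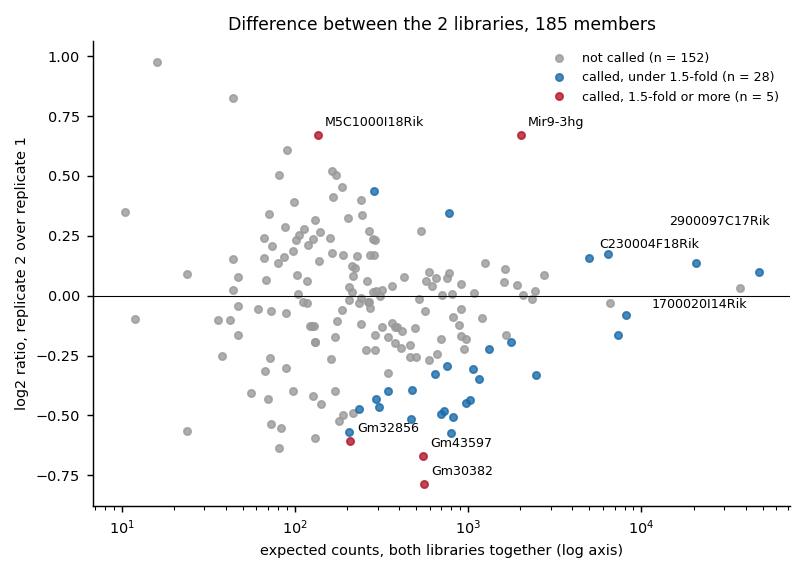
Log2 ratio of each of the 185 members (replicate 2 over replicate 1, vertical) against its expected counts in both libraries together (horizontal, log axis), coloured by whether it passed the exact binomial test. The spread narrows with depth, the 5 members that passed at 1.5-fold or more are named in red, and the 28 others that passed are mostly below 0.

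Most members with several annotated transcripts spread their level over them. Of 102 such members, 81 had no transcript with 80% or more of the gene's level, and the median share of the highest transcript was 60.1%. Gm3764 was the most divided of the high members, with 18.8% and 19.9% on its highest transcript of 11. AI480526 was alike, with 19.8% and 22.0% on the highest of 7. Cyrano and Cdr1os, by contrast, had 1 dominant transcript each. In 68 of the 102 members the same transcript was highest in both quantifications.

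The 2 deposited quantifications agreed for most members once a common shift was set aside. TPM was higher in the other quantification by a median log2 difference of 0.552 for members and 0.546 for the protein-coding genes at 2 TPM or more, with a pseudocount of 0.5 TPM. As deposited, 151 of 185 members lay within 2-fold, 26 were more than 2-fold higher in the other quantification and 8 lower. With the shift of the coding genes taken off, 167 members (and 98.7% of the coding genes) lay within 2-fold, 7 were higher and 11 lower. Sequence shared with other genes was set beside this: 10 of 17 members with over 50% of their 31-base words in another gene were within 2-fold, against 157 of 168 others.

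Several members with the largest differences shared sequence with other genes, whose part in the differences was not tested. Gm27000, a single exon on the X chromosome with 96.2% of its words in other genes, mainly Meg3, had 19.7 and 17.02 TPM in the gene table and 141 and 132 TPM in the other. Gm20186, with 80.5% shared, mainly with Gm26809, had 4.4 and 2.83 TPM against 46.3 and 37.8 TPM. Gm10076, which RefSeq calls a pseudogene and which shares 84.2% of its words, mainly with the ribosomal protein gene Rpl41, had 40.3 and 35.0 TPM against 0 and 0. Gm49207, with 83.1% in common with Ahsa1, had 15.4 and 11.9 TPM against 0 and 0. Gm35558 shared no word with another gene but rested on 6 counts in each library. These 5 genes count as uncertain, as do the 32 members whose expected counts were not whole numbers within 0.01, as values are when reads are divided between genes. The 32 include 2900097C17Rik (Norad), Jpx, Ftx and Pvt1.

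**Figure D5:**
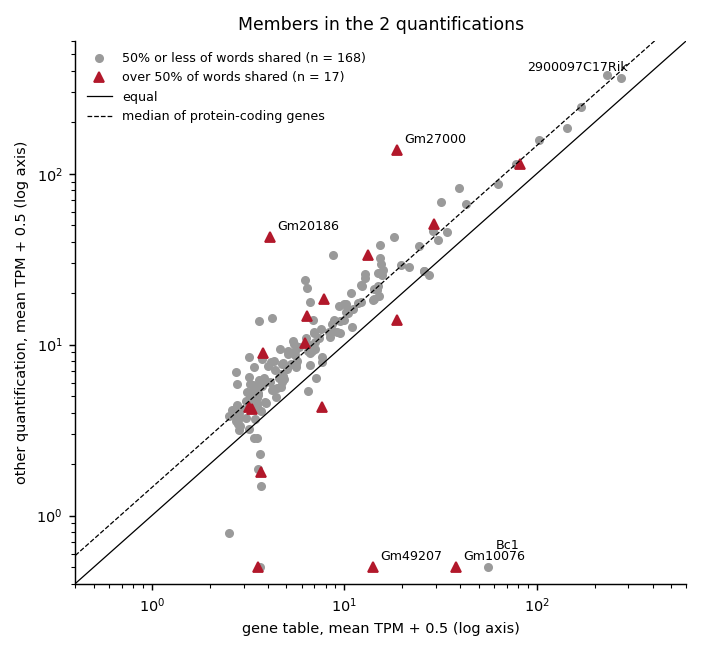
Mean TPM + 0.5 of each member in the other quantification (vertical) against the gene table (horizontal), both on log axes, with triangles for the 17 members that share over 50% of their words with other genes. Most points follow the dashed line, the median of protein-coding genes, while Gm27000 and Gm20186 lie above it and 5 members, Bc1, Gm10076 and Gm49207 among them, lie at 0 in the other quantification.

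Some members may not be non-coding in other annotations. Of 185 members, 118 matched a RefSeq gene, and RefSeq classed 104 of them as lncRNA, 11 as protein-coding, 1 as a pseudogene and 2 as transcribed pseudogenes. The protein-coding ones included Dbpht2, at 32.4 TPM in replicate 1 and 34.8 TPM in replicate 2, and 1810058I24Rik, a gene for a mitochondrial micropeptide, at 28.9 and 27.9 TPM.

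Membership at the low end rested on small numbers. The member nearest to the threshold was Gm42743, at 2.00 TPM in replicate 1 and 2.02 TPM in replicate 2. Gm48893, at 2.01 and 2.02 TPM, had 22 and 25 counts. Just outside were Gm17354, at 2.38 and 1.94 TPM, and Gm29260, at 1.94 and 2.72 TPM. Each of these outside genes missed the threshold in 1 library only.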

How the data were processed

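For each library the authors deposited a gene table and a transcript table with expected counts, TPM, posterior mean TPM with interval bounds and, per transcript, the percent of its gene. A second transcript table that the authors deposited, called the other quantification, has estimated counts beside TPM. The deposited notes name mm10 and GENCODE M21. The aligner, the quantifiers and any strand setting were not given in the sources used here. The members and lists were chosen with earlier results of these data known.

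Symbols and classes came from the transcript identifiers, and 86 gene rows without a class, 97 spike-in rows and 26248 numeric rows stayed out of tests. Spike-in rows took 0.323% and 0.351% of counts. Counts were scaled with TMM factors (edgeR 4.0.16, R 4.3.3). A two-sided exact binomial test on rounded expected counts was run per gene with 10 or more counts in total. Benjamini-Hochberg adjustment was over 20371 genes, with a threshold of 0.05. The test was also run on simulated data, which held counting error only and cannot show how it treats variation between animals. Ratios use a prior count of 0.5. SEs and limits cover counting error only, and the test compares these libraries. Named genes are the 20 highest members, those nearest the threshold, known lncRNAs, microRNA and small nucleolar RNA hosts, up to 8 of each position class and the largest differences between libraries or quantifications, with their neighbours. Members placed by imprinted region or transcription factor, and those in RefSeq's coding class, were chosen after their values were seen. Alternatives were other scalings, count filters, thresholds, distances, posterior mean TPM, the other quantification and leaving out a library. Results for a few neighbouring genes are not reported here.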

Additional observations from a re-analysis of the deposited data

How the results depend on the processing

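The rule gave 286 genes at 1 TPM or more, 87 at 5 TPM or more and 439 at 2 TPM or more in the other quantification, against 185, and between 199 and 214 when 1 library alone decided. The members' median TPM of 5.11 became 5.21 with posterior mean TPM and 7.99 in the other quantification, where the median gene has a higher TPM, and lay between 5.12 and 5.22 without 1 library. With spike-in rows as the scale, 50 members differed between the libraries in place of 33, and 17 in place of 5 at 1.5-fold or more. The log2 ratios of 2900097C17Rik and C230004F18Rik then turned to -0.0488 and -0.0101. Under total count, DESeq2 size factors, the count filters and the other quantification, between 28 and 39 members differed, and 28 of the 33 were called in both quantifications. With a gap of at most 2 kb, 15 members in place of 27 lay downstream of a coding gene. The share of the 10 highest members was 43.4% in the other quantification, against 48%, and ranged from 46.7% to 49.3% without 1 library, the members within 2-fold between quantifications from 148 to 151 (157 with a pseudocount of 1 TPM), and those with no transcript at 80% or more from 76 to 80. The other results moved by less than 1.5 times or less than the spread between libraries under the alternatives run. No test between libraries can be made without 1 of them, and no paired analysis was possible because there is a single group.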
